A study of Mus musculus with 10 samples.

Results

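The 40 genes described here are interferon-stimulated genes and nucleic acid sensors: genes that cells switch on in answer to interferon, receptors that detect viral RNA or DNA inside the cell, and the transcription factors between them. They were chosen by gene symbol from a fixed list, out of 20738 genes with a named feature on the array, and they are covered by 71 features. Expression was measured on 10 single-colour arrays of cultured mouse cells in 3 groups. The tested cells were ieSCs, which is short for induced embryonic Sertoli-like cells, and they had 2 origins: tail tip fibroblasts (TTFs) of females, on 4 arrays, and embryonic fibroblasts (MEFs), also on 4. Unconverted MEFs, the control, were on 2 arrays. No array held unconverted TTFs, so for TTF-derived ieSCs conversion and the origin of the cells cannot be told apart. In what follows, a loss or a rise against MEFs means a lower or a higher level than in MEFs. All the cells are labelled "Congenic, homo R26-M2rtTA strain", a strain that carries the doxycycline-dependent activator. The ieSCs also carried transgenes for Nr5a1, Wt1, Dmrt1, Gata4 and Sox9 and were taken 2 weeks after doxycycline removal. The MEFs had no transgene and were cultured for 2 weeks as well, in the same medium. No animal age is given. TTF-derived and MEF-derived ieSCs each have preparations numbered 1 and 2 with 2 arrays per preparation (1a, 1b, 2a and 2b below), and the MEFs are a single preparation with 2 arrays. The labels do not say whether arrays of a preparation are separate cultures, nor whether a preparation is a clone or a pool, so the p-values measure the spread between these arrays, part of which may be technical.

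Interferons bind surface receptors that act through JAK kinases on STAT proteins. Type I interferon leads to a complex with STAT2 and IRF9 that binds the interferon-stimulated response element (ISRE), while interferon gamma acts at GAS sites. The genes switched on in this way include inhibitors of viral RNA and protein synthesis, the sensors that lead to further interferon production, and the machinery that presents peptides to T cells. Many of them also have a low basal level in fibroblasts without any added interferon.

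The values are log2 array intensities as deposited, on which a difference of 1 is a 2-fold change. A feature counted as measured when it lay above its array's 40th percentile, near 5.0, on at least 2 arrays. That left 39 of the 40 genes, of which 34 were above this level on all 10 arrays. Oas3, an oligoadenylate synthetase, was not tested: it lay between 4.48 and 4.77 in TTF-derived ieSCs, between 4.16 and 4.86 in MEF-derived ieSCs, and at 5.41 and 4.82 in MEFs. Ifih1, Ifi202b, Mx1, Rsad2 and Cmpk2 lay below it on some arrays. Ifih1 and Cmpk2 were each above it on both MEF arrays and on 1 MEF-derived ieSC array. Without the MEF arrays they would not have passed, so the filter kept them through the group where they were high. Across all features, the correlation was 0.9896 to 0.9966 within a preparation and 0.926 to 0.9408 for an ieSC array with a MEF array. The label of the cells was checked against marker lists. Of 9 Sertoli markers tested, 7 were higher and 2 lower in TTF-derived ieSCs than in MEFs, and 6 were higher and 2 lower in MEF-derived ieSCs. The Sertoli list includes Wt1, Gata4 and Sox9, which the ieSCs carried as transgenes, so for these genes it is no check of the label. Amh, a hormone gene that fetal Sertoli cells express strongly, was dim on every TTF-derived and every MEF array. Of 9 fibroblast markers, 8 were lower and 1 higher in TTF-derived ieSCs, and 7 were lower and 0 higher in MEF-derived ieSCs. Fap and Twist1 were dim on every ieSC array, so the filter kept them through the MEF arrays alone and they could only come out lower. Of 5 markers of other leukocytes, 0 were called in TTF-derived ieSCs and 1 was lower in MEF-derived ieSCs. Over all genes tested, 23.3% were higher and 21.9% lower in TTF-derived ieSCs, and 27.2% were higher and 24.0% lower in MEF-derived ieSCs.

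Against MEFs, the ieSCs of both origins had a mixed pattern, with more of the genes lower than higher. In TTF-derived ieSCs 16 of the 39 genes were lower and 7 higher (limma, adjusted p under 0.05), against 21.9% lower and 23.3% higher of all 16650 genes tested. In MEF-derived ieSCs 17 were lower and 9 higher, against 24% lower and 27.2% higher of all genes. The median log2 difference from MEFs over the 39 genes was -0.34 in TTF-derived and -0.93 in MEF-derived ieSCs, beside 0.06 and 0.10 over all genes. With either direction counted, 45.1% of all genes were called in TTF-derived and 51.2% in MEF-derived ieSCs, so that a call by itself sets no gene apart. The arrays did not overlap with those of MEFs in 31 genes for TTF-derived and 33 for MEF-derived ieSCs, where the shares over all genes were 72.1% and 76.3%.

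Both comparisons share the same 2 MEF arrays. Of the 39 genes, 14 were lower in both, where 16.1% of all genes were, and 5 were higher in both, where 16.7% were. The 14 were Stat2, Irf9, Ifih1, Dhx58, Ifit1, Oas1a, Oas2, Oasl2, Mx2, Bst2, Isg15, Usp18, Igtp and Tap1. Ifih1, which is in this count, and Cmpk2, which is in the TTF-derived count, were kept by the filter through the MEF arrays. The 5 were Irf1, Trim25, Zbp1, Gbp2 and Gbp3, of which Trim25 has a second feature that was lower in both. With the features of each gene averaged, Trim25 was among the lower genes. The counts were then 17 lower and 6 higher in TTF-derived and 18 lower and 8 higher in MEF-derived ieSCs. Of all genes, 45.7% were called in TTF-derived and 52.1% in MEF-derived ieSCs under that setting. No gene was called in opposite directions, where 1.72% of all genes were. Against MEFs, Ifit2 and Oasl1 (higher) and Cmpk2 and Ifi44 (lower) passed in TTF-derived but not in MEF-derived ieSCs, and Oasl1 also passed between the origins, while Ifit2, Cmpk2 and Ifi44 did not. Eif2ak2, Xaf1, Parp14 and Irgm1 (higher) and Iigp1, Psmb8 and Psmb9 (lower) passed in MEF-derived but not in TTF-derived ieSCs, and of these Parp14 and Irgm1 did not pass between the origins. The other 9, Irf3, Irf7, Ddx58, Ifi202b, Ifi204, Ifit3, Mx1, Rsad2 and Ifi35, passed in neither comparison. With the 2 arrays of each preparation averaged to 1 value, the genes called fell in number to 13 (10 lower, 3 higher) in TTF-derived and 15 (12 lower, 3 higher) in MEF-derived ieSCs, where 28.6% of all genes were called in TTF-derived and 35.4% in MEF-derived ieSCs. Those lower in both were then 9, namely Stat2, Irf9, Ifih1, Dhx58, Oas2, Bst2, Cmpk2, Isg15 and Tap1, and those higher in both were Irf1 and Gbp2. Among the 9, Ifih1 and Cmpk2 were kept by the filter through the MEF arrays.

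**Figure D1:**
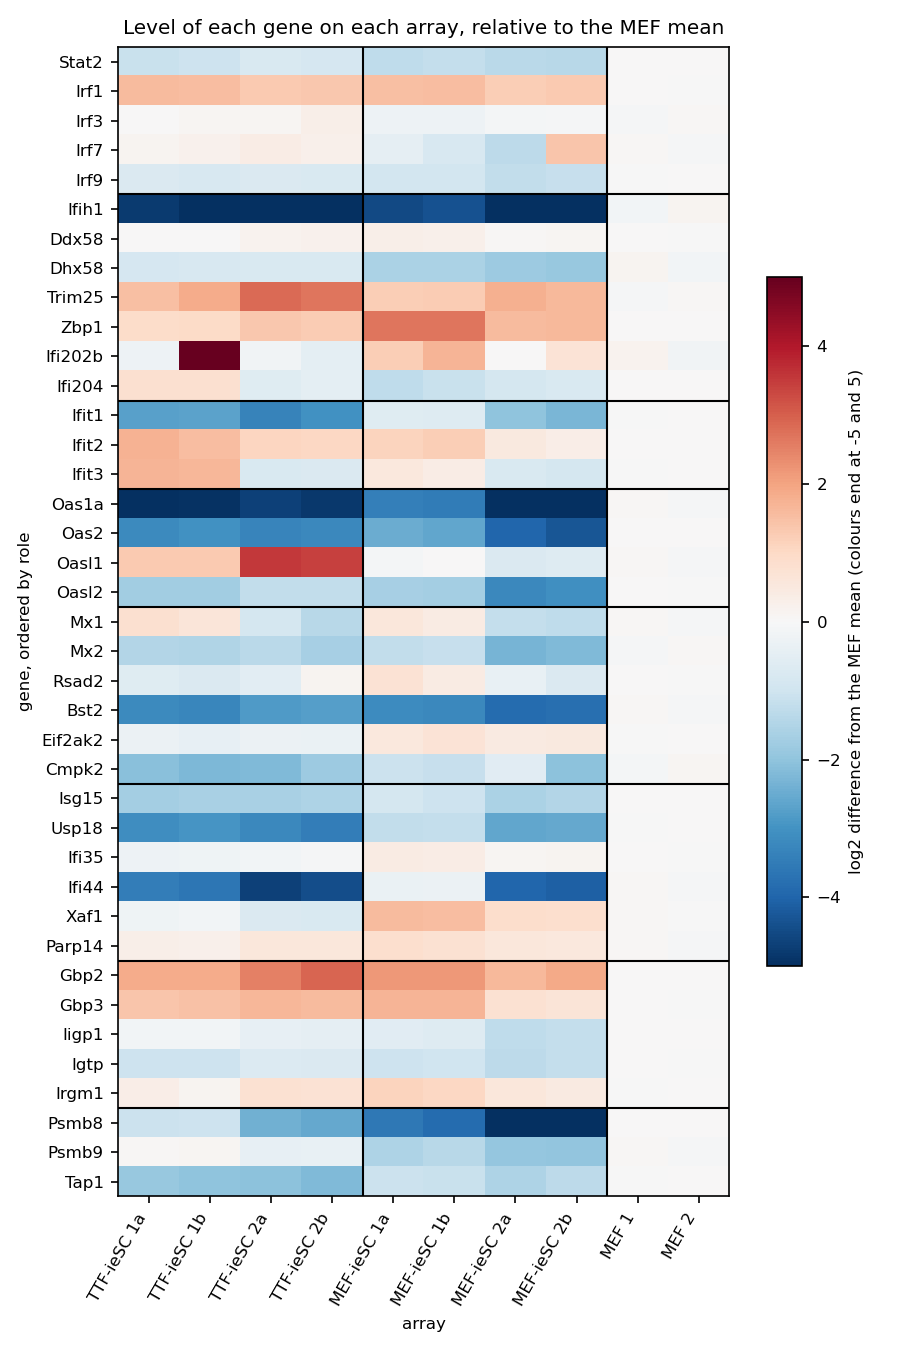
Level of the 39 genes (rows, grouped by role) on each of the 10 arrays (columns) as the log2 difference from the mean of the 2 MEF arrays, red for higher and blue for lower, with colours ending at -5 and 5. Rows such as Ifih1, Oas1a and Bst2 are blue on all 8 ieSC arrays, Irf1 and Gbp2 are red on all 8, and Ifi202b has a single dark red cell, at a level of 15.25 on array 1b of TTF-derived ieSCs.

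Macrophages are rich in sensors and interferon-induced genes, and their markers moved with this comparison. Of 19 macrophage markers, 17 were lower and 0 higher in TTF-derived ieSCs, and 18 were lower and 1 higher in MEF-derived ieSCs. Of all genes, 21.9% were lower and 23.3% higher in TTF-derived ieSCs, and 24.0% were lower and 27.2% higher in MEF-derived ieSCs. Their summed intensity on the log2 scale was 12.63 to 13.01 in TTF-derived ieSCs, 13.18 to 13.51 in MEF-derived ieSCs and 16.86 to 16.9 in MEFs. C1qa, Laptm5, Tyrobp and Cx3cr1 were dim on all 8 ieSC arrays, and none of the 19 was dim on both MEF arrays. The filter kept these dim genes through the MEF arrays alone, so they could only come out lower in ieSCs. Other markers of the list stayed well above the dim level in ieSCs. Csf1r read 9.77 to 11.04 in TTF-derived and 10.76 to 11.13 in MEF-derived ieSCs, and 14.64 and 14.81 in MEFs. Cd14 read 9.54 to 11.19 in TTF-derived ieSCs, 9.26 to 10.12 in MEF-derived ieSCs and 11.24 in MEFs, and did not pass in TTF-derived ieSCs (limma adjusted p = 0.215). Their part in the differences below was not tested. In bulk cultures, fewer cells of a type and less RNA per cell cannot be told apart.

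The letters of the ISRE were present near the start of many of these genes, whichever way they moved. RefSeq promoter windows (GRCm38.p6, 250 bases before to 50 bases after the start) matched 31 of the 40 genes. The ISRE letters, GAAA and again GAAA with any 2 bases between, were searched on both strands with overlapping matches counted and were found in 15 of the 31, or 48.4%, against 3.99% of 27025 genes. The GAS letters TTCNNNGAA, which read alike on both strands, were found in 9 of the 31, or 29%, against 9.55%. The 14 tested genes with the ISRE letters included 7 lower and 2 higher in TTF-derived ieSCs against MEFs, and the 16 tested genes without them included 5 lower and 4 higher. In MEF-derived ieSCs the counts were 7 lower and 4 higher with the letters, and 5 lower and 3 higher without. A match is a run of letters and not a measured binding site. The stretches below are shown because their genes passed in the same direction in both comparisons, the first 4 lower and the last 3 higher. Each is read 5′ to 3′ on the strand of its gene. Capitals mark the GAS letters in Irf1 and the ISRE letters in the others. The Bst2 stretch also holds GAS letters, which overlap its ISRE letters and are not marked.
Isg15, chr4:156200855-156200916, minus strand: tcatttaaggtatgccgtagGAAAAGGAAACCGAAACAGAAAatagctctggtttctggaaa
Oas1a, chr5:120907526-120907565, minus strand: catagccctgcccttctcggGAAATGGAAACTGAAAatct
Bst2, chr8:71537567-71537622, minus strand: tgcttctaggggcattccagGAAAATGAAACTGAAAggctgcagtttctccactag
Ifit1, chr19:34640765-34640833, plus strand: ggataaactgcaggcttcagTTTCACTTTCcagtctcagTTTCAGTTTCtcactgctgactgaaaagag
Gbp2, chr3:142620584-142620633, plus strand: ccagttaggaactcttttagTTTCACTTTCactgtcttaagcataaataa
Gbp3, chr3:142559979-142560034, plus strand: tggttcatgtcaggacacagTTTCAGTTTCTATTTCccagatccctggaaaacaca
Irf1, chr11:53769904-53769952, plus strand: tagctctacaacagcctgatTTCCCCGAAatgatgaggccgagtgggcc

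The transcription factors split, with subunits of the type I interferon complex lower and Irf1 higher. Stat2, a subunit of that complex, read 11.36, 11.44, 11.72 and 11.65 in TTF-derived ieSCs, 11.20, 11.29, 11.15 and 11.11 in MEF-derived ieSCs, and 12.48 on both MEF arrays. No ieSC array reached the MEF level, and the MEF-derived arrays all lay under the TTF-derived ones. The log2 differences from MEFs were -0.94 ± 0.14 (SE) in TTF-derived ieSCs (limma adjusted p = 0.000409) and -1.30 ± 0.14 in MEF-derived ieSCs (adjusted p = 4.31e-05). Irf9, its DNA-binding partner, differed by -0.76 ± 0.13 in TTF-derived and -1.06 ± 0.13 in MEF-derived ieSCs. Irf1, a factor induced by interferon gamma that acts on class I and GBP genes, read 13.75 to 14.01 in TTF-derived ieSCs, 13.66 to 13.99 in MEF-derived ieSCs, and 12.46 and 12.43 in MEFs. Its ieSC arrays all stood above the MEF arrays, and the origins overlapped. Irf1 rose by 1.44 ± 0.14 in TTF-derived ieSCs (adjusted p = 3.12e-05) and by 1.39 ± 0.14 in MEF-derived ieSCs (adjusted p = 3.29e-05). Irf3, the factor that sensors activate first, differed by 0.12 ± 0.14 in TTF-derived and -0.16 ± 0.14 in MEF-derived ieSCs and passed in neither. Irf7, which amplifies interferon production, lay between 7.93 and 8.18 in TTF-derived ieSCs, and at 7.85 and 7.77 in MEFs. In MEF-derived ieSCs it read 7.35, 7.01, 6.50 and 9.20, the last on array 2b, so that arrays of 1 preparation disagreed and the standard error was 1.10.

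Among the RNA sensors, Ifih1 and Dhx58 were lower in both kinds of ieSC and Ddx58 passed in neither. Ifih1 encodes MDA5, a sensor of long double-stranded RNA. It read 4.66, 3.70, 3.65 and 4.28 in TTF-derived ieSCs, 4.93, 5.10, 4.47 and 3.99 in MEF-derived ieSCs, and 9.33 and 9.58 in MEFs. All but 1 of the ieSC values lay at the dim end of the array, far below both MEF arrays. The log2 differences were -5.38 ± 0.58 in TTF-derived (limma adjusted p = 5.24e-05) and -4.83 ± 0.58 in MEF-derived ieSCs (adjusted p = 9.2e-05). They are therefore differences on the deposited scale and not ratios of transcript. The filter kept Ifih1 through the MEF arrays, where it was high, so these p-values lend its loss no further support. Dhx58 encodes LGP2, a regulator of MDA5 and RIG-I. It read 7.18, 7.23, 7.25 and 7.27 in TTF-derived ieSCs, 6.43, 6.42, 6.19 and 6.13 in MEF-derived ieSCs, and 8.15 and 7.90 in MEFs. The groups formed 3 separate steps with no overlap, MEF-derived ieSCs lowest, and the differences from MEFs were -0.79 ± 0.16 in TTF-derived (adjusted p = 0.0028) and -1.73 ± 0.16 in MEF-derived ieSCs (adjusted p = 1.57e-05). Ddx58, which encodes RIG-I, the sensor of RNA with a 5′ triphosphate, differed by 0.10 ± 0.12 in TTF-derived and 0.16 ± 0.12 in MEF-derived ieSCs (adjusted p = 0.563 and 0.294).

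The other genes of this group were higher, level or not settled. Zbp1, a sensor of Z-form nucleic acid that can start necroptosis, rose by 1.12 ± 0.33 in TTF-derived (adjusted p = 0.0214) and 2.14 ± 0.33 in MEF-derived ieSCs (adjusted p = 0.00053). Ifi204, a DNA-binding protein of the interferon-inducible p200 family, differed by 0.12 ± 0.43 in TTF-derived and -1.01 ± 0.43 in MEF-derived ieSCs and passed in neither. Its TTF-derived preparations lay on opposite sides of the MEF level. Ifi202b, of the same family, read 3.62, 15.25, 3.69 and 3.36 in TTF-derived ieSCs, 5.08, 5.55, 3.88 and 4.56 in MEF-derived ieSCs, and 4.02 and 3.70 in MEFs. The high value belongs to 1 array, 1b, on which its second feature read 3.51, and the gene passed in no comparison.

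Trim25, the ubiquitin ligase that activates RIG-I, was singled out after its values were seen, because its 2 features went in opposite directions. The feature taken for the gene, designed on a GenBank mRNA, read 15.13 to 16.46 in TTF-derived ieSCs, 14.85 to 15.39 in MEF-derived ieSCs, and 13.59 and 13.67 in MEFs. On it Trim25 was higher by 2.23 ± 0.38 in TTF-derived (adjusted p = 0.00114) and 1.47 ± 0.38 in MEF-derived ieSCs (adjusted p = 0.0103). The feature designed on the RefSeq transcript read 6.65 to 6.71 in TTF-derived ieSCs, 6.60 to 6.85 in MEF-derived ieSCs, and 14.73 and 14.83 in MEFs, which is -8.09 and -8.01 against MEFs in TTF-derived and MEF-derived ieSCs. The direction of Trim25 is thus not settled by these arrays, and the position of each feature in the transcript is not used here. Of the 12 genes with more than 1 kept feature, Trim25 was the gene whose features passed in opposite directions. The 10 features of Igtp ranged from -0.87 to -0.65 and the 10 of Tap1 from -2.07 to -1.90 in TTF-derived ieSCs against MEFs.

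**Figure D2:**
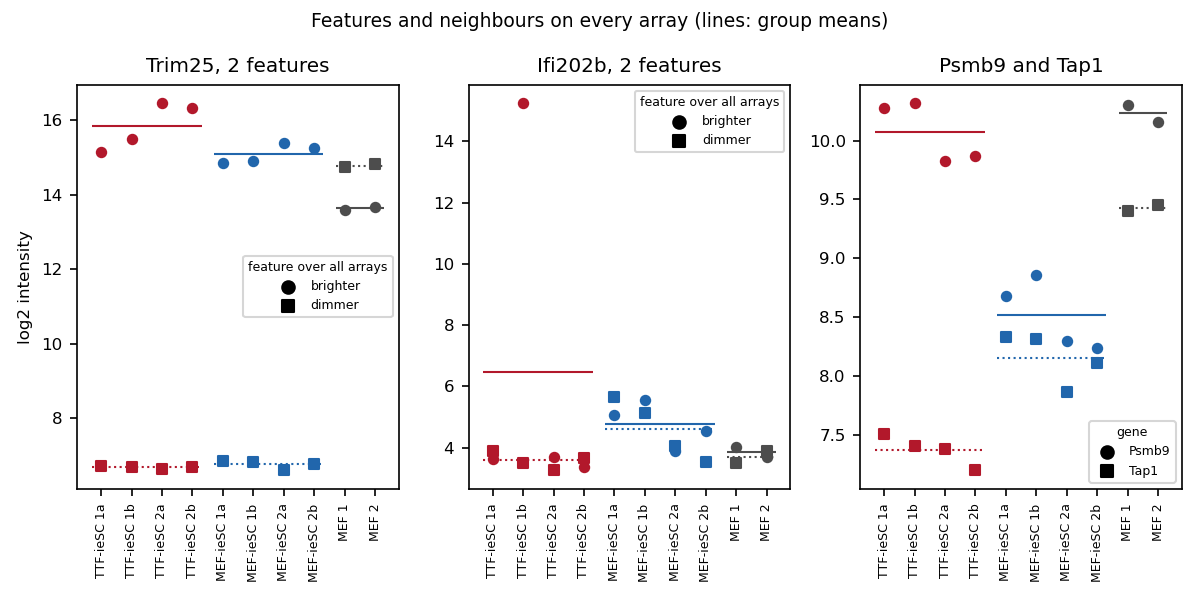
Log2 intensity (vertical) on each of the 10 arrays for both features of Trim25 (left), both features of Ifi202b (middle), and Psmb9 and Tap1 (right), with lines at the group means. The Trim25 features stand closest in MEFs (13.59 to 14.83) and far apart on the ieSC arrays, and 1 Ifi202b point lies at 15.25 while its other feature reads 3.51 on that array.

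In the IFIT family, whose proteins bind viral RNA and block its translation, the 3 genes went different ways. Ifit1 recognises RNA whose cap lacks 2′-O methylation. It read 6.38, 6.43, 5.76 and 6.07 in TTF-derived ieSCs, 8.47, 8.46, 7.06 and 6.79 in MEF-derived ieSCs, and 9.07 and 9.10 in MEFs. The MEF arrays were highest, the TTF-derived arrays lowest, and the 3 groups did not overlap. The difference from MEFs was -2.93 ± 0.50 in TTF-derived ieSCs (adjusted p = 0.00105) and -1.39 ± 0.50 in MEF-derived ieSCs (adjusted p = 0.0419). The second of these did not pass under 12 of the alternative settings, with an adjusted p of up to 0.208. Ifit2, a partner of the other IFIT proteins, was higher by 1.35 ± 0.31 in TTF-derived ieSCs (adjusted p = 0.00607) and by 0.79 ± 0.31 in MEF-derived ieSCs, which did not pass (adjusted p = 0.0609). Ifit3, which stabilises the complex with Ifit1, read 12.47, 12.43, 9.99 and 10.05 in TTF-derived ieSCs, 11.27, 11.13, 9.99 and 9.89 in MEF-derived ieSCs, and 10.75 and 10.77 in MEFs. In both origins preparation 1 stood above the MEF arrays and preparation 2 below them, and neither comparison passed (adjusted p = 0.674 in TTF-derived and 0.866 in MEF-derived ieSCs).

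The OAS family held the largest loss in each origin among genes that stayed above the dim level on all arrays, that of Oas1a. Its enzymes make 2′-5′ oligoadenylates on double-stranded RNA and so activate RNase L, an activity that mouse OASL1 lacks. Oas1a read 6.83, 6.87, 7.15 and 6.98 in TTF-derived ieSCs, 8.40, 8.32, 5.38 and 5.36 in MEF-derived ieSCs, and 11.85 and 11.76 in MEFs. All 8 ieSC arrays lay below the MEF arrays, with MEF-derived preparation 1 above and preparation 2 below the TTF-derived arrays. The differences were -4.84 ± 0.86 in TTF-derived (adjusted p = 0.00138) and -4.94 ± 0.86 in MEF-derived ieSCs (adjusted p = 0.00108), and on its dimmer feature -3.02 in TTF-derived and -2.93 in MEF-derived ieSCs. Oas2 read 6.64, 6.80, 6.52 and 6.61 in TTF-derived ieSCs, 7.33, 7.25, 5.86 and 5.55 in MEF-derived ieSCs, and 9.84 and 9.83 in MEFs. It repeated the order of Oas1a, with differences of -3.19 ± 0.49 (adjusted p = 0.000521) in TTF-derived and -3.33 ± 0.49 (adjusted p = 0.000345) in MEF-derived ieSCs. Oasl2 was lower by -1.49 ± 0.46 in TTF-derived (adjusted p = 0.0246) and -2.41 ± 0.46 in MEF-derived ieSCs (adjusted p = 0.00174).

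Oasl1, which in mouse represses translation of Irf7, was the family's exception. It read 8.23, 8.24, 10.44 and 10.34 in TTF-derived ieSCs, 6.84, 6.92, 6.20 and 6.28 in MEF-derived ieSCs, and 6.98 and 6.85 in MEFs. TTF-derived arrays, preparation 2 above all, were higher than the other 6. The gene rose by 2.39 ± 0.65 against MEFs (adjusted p = 0.0141) and by 2.75 ± 0.53 against MEF-derived ieSCs (adjusted p = 0.00324), while MEF-derived ieSCs differed from MEFs by -0.36 ± 0.65 (adjusted p = 0.685).

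Of the 6 other antiviral effectors, 3 were lower in TTF-derived ieSCs and 2 in MEF-derived ieSCs, where 1 was higher. Bst2, or tetherin, which holds budding virus at the cell surface, read 10.74, 10.67, 11.11 and 11.17 in TTF-derived ieSCs, 10.81, 10.73, 10.08 and 10.16 in MEF-derived ieSCs, and 14.01 and 13.87 in MEFs. The MEF arrays stood well clear of all ieSC arrays, and the 2 kinds of ieSC overlapped. The differences were -3.02 ± 0.25 in TTF-derived (adjusted p = 1.01e-05) and -3.49 ± 0.25 in MEF-derived ieSCs (adjusted p = 3.23e-06). Mx2, an antiviral GTPase, was lower by -1.49 ± 0.34 in TTF-derived and -1.72 ± 0.34 in MEF-derived ieSCs. Cmpk2, a mitochondrial nucleotide kinase, read 3.70 to 4.14 in TTF-derived ieSCs, 3.90 to 5.38 in MEF-derived ieSCs, and 5.85 and 6.05 in MEFs, so its difference of -2.09 ± 0.64 in TTF-derived ieSCs (adjusted p = 0.0249) runs into the dim end. Cmpk2 was kept by the filter through the MEF arrays, and it was among the genes lower in both kinds of ieSC when arrays of a preparation were averaged. Mx1 and Rsad2, which encodes viperin, stayed near the dim level on all arrays, at 3.77 to 5.95 and at 4.43 to 5.91, and passed in neither comparison.

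Eif2ak2 encodes PKR, the kinase that stops translation when it binds double-stranded RNA. It read 10.62, 10.49, 10.62 and 10.56 in TTF-derived ieSCs, 11.42, 11.58, 11.37 and 11.39 in MEF-derived ieSCs, and 10.89 and 10.93 in MEFs. The MEF arrays lay between the 2 kinds of ieSC without overlap. MEF-derived ieSCs were higher than MEFs by 0.53 ± 0.13 (adjusted p = 0.0071), TTF-derived ieSCs differed by -0.34 ± 0.13 (adjusted p = 0.0553), and TTF-derived were lower than MEF-derived ieSCs by -0.87 ± 0.10 (adjusted p = 0.000216).

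Isg15 and the protease that removes it were both lower. Isg15, a ubiquitin-like protein joined to other proteins, read 12.48, 12.53, 12.54 and 12.64 in TTF-derived ieSCs, 13.29, 13.15, 12.60 and 12.69 in MEF-derived ieSCs, and 14.18 and 14.17 in MEFs. All ieSC arrays were under the MEF level, and MEF-derived preparation 1 was nearest to it. The differences were -1.63 ± 0.21 in TTF-derived (adjusted p = 0.000156) and -1.24 ± 0.21 in MEF-derived ieSCs (adjusted p = 0.000754). Usp18, the protease, which also restrains the type I receptor, read 6.58, 6.73, 6.47 and 6.22 in TTF-derived ieSCs, 8.45, 8.51, 7.11 and 7.13 in MEF-derived ieSCs, and 9.67 and 9.71 in MEFs. The groups did not overlap, in the same order as for Ifit1, and the differences were -3.19 ± 0.43 in TTF-derived (adjusted p = 0.000224) and -1.89 ± 0.43 in MEF-derived ieSCs (adjusted p = 0.00466).

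Of the 4 further interferon-induced genes, Xaf1 and Ifi35 passed between the origins, both lower in TTF-derived ieSCs, and Ifi44 and Parp14 did not. Ifi44, a cytoplasmic protein, read 6.73, 6.56, 5.50 and 5.73 in TTF-derived ieSCs, 9.85, 9.87, 6.21 and 6.08 in MEF-derived ieSCs, and 10.21 and 10.13 in MEFs. MEF-derived preparation 1 stood close to MEFs and preparation 2 close to the TTF-derived arrays. The difference passed in TTF-derived ieSCs (-4.04 ± 1.10, adjusted p = 0.0148) and not in MEF-derived ieSCs (-2.17 ± 1.10, adjusted p = 0.135), and the 2 kinds of ieSC did not pass against each other (adjusted p = 0.142). Xaf1, a promoter of apoptosis, read 12.05, 12.15, 11.55 and 11.53 in TTF-derived ieSCs, 13.88, 13.82, 13.16 and 13.13 in MEF-derived ieSCs, and 12.32 and 12.25 in MEFs. MEF-derived ieSCs were above both other groups, by 1.21 ± 0.28 against MEFs (adjusted p = 0.00499), and TTF-derived were lower than MEF-derived ieSCs by -1.68 ± 0.23 (adjusted p = 0.000424). Parp14, an ADP-ribosyltransferase, was higher by 0.67 ± 0.15 in MEF-derived ieSCs (adjusted p = 0.00507) and differed by 0.41 ± 0.15 in TTF-derived ieSCs (adjusted p = 0.053). Ifi35 passed in neither comparison with MEFs.

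**Figure D3:**
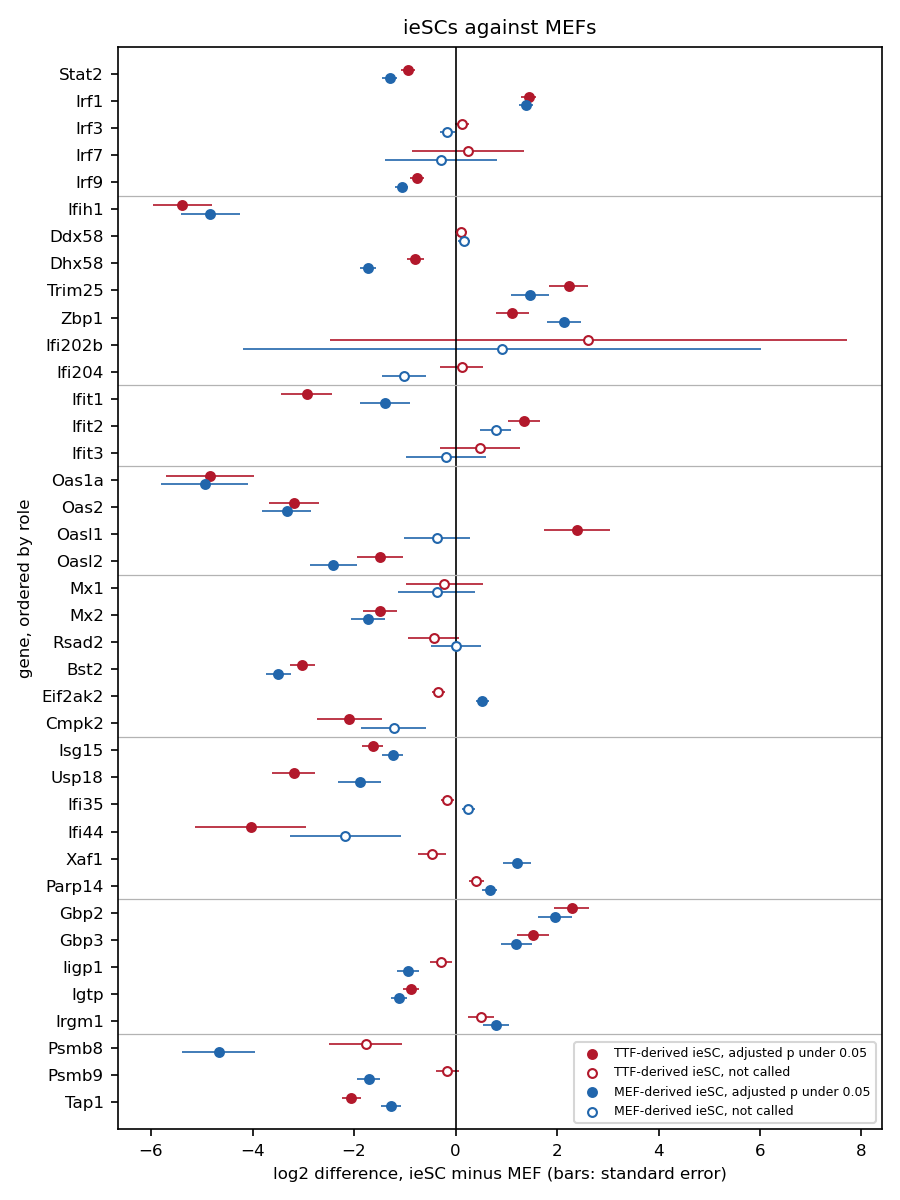
Log2 difference from MEFs (horizontal) with its standard error for the 39 genes (vertical, grouped by role), TTF-derived ieSCs in red and MEF-derived ieSCs in blue, filled where the limma adjusted p is under 0.05. The lowest points are Ifih1 at -5.38, Oas1a at -4.94 and Psmb8 at -4.67, and Ifi202b carries the widest bar, with a standard error of 5.10.

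The interferon-induced GTPases held gains and losses side by side. Gbp2, a guanylate-binding protein that attacks the vacuoles of intracellular pathogens, read 13.05, 13.05, 13.70 and 14.10 in TTF-derived ieSCs, 13.33, 13.36, 12.81 and 13.07 in MEF-derived ieSCs, and 11.18 on both MEF arrays. Every ieSC array was above MEFs, and the origins overlapped. The gene rose by 2.29 ± 0.34 in TTF-derived (adjusted p = 0.000464) and 1.96 ± 0.34 in MEF-derived ieSCs (adjusted p = 0.00108). Gbp3, of the same family, rose by 1.53 ± 0.31 and 1.20 ± 0.31 in TTF-derived and MEF-derived ieSCs. Igtp, an immunity-related GTPase also called Irgm3, read 10.38, 10.41, 10.76 and 10.70 in TTF-derived ieSCs, 10.41, 10.45, 10.14 and 10.23 in MEF-derived ieSCs, and 11.46 and 11.41 in MEFs. It went the other way from the GBPs on all ieSC arrays, with -0.87 ± 0.16 in TTF-derived (adjusted p = 0.00143) and -1.12 ± 0.16 in MEF-derived ieSCs (adjusted p = 0.000258). Iigp1, a GTPase recruited to pathogen vacuoles, read 8.17, 8.16, 7.89 and 7.86 in TTF-derived ieSCs, 7.74, 7.66, 7.03 and 7.13 in MEF-derived ieSCs, and 8.31 and 8.32 in MEFs. The steps were small and did not overlap, with -0.29 ± 0.22 in TTF-derived ieSCs, which did not pass, and -0.93 ± 0.22 in MEF-derived ieSCs (adjusted p = 0.00647). Irgm1, which regulates the other immunity-related GTPases, was higher by 0.80 ± 0.25 in MEF-derived ieSCs (adjusted p = 0.0253) and differed by 0.50 ± 0.25 in TTF-derived ieSCs (adjusted p = 0.143).

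Antigen processing was lower in MEF-derived ieSCs for all 3 genes and in TTF-derived ieSCs for Tap1. Psmb8 and Psmb9 are catalytic subunits of the immunoproteasome, which cuts proteins into peptides for class I molecules, and Tap1 is a subunit of the transporter that carries them into the endoplasmic reticulum. Psmb8 read 9.92, 9.95, 8.60 and 8.42 in TTF-derived ieSCs, 7.42, 7.15, 5.53 and 5.19 in MEF-derived ieSCs, and 10.99 on both MEF arrays. The 3 groups did not overlap, with MEF-derived preparation 2 near the dim level. The difference from MEFs was -4.67 ± 0.72 in MEF-derived ieSCs (adjusted p = 0.000474), and in TTF-derived ieSCs it was -1.77 ± 0.72 and did not pass (adjusted p = 0.072). Psmb9 read 10.28, 10.32, 9.83 and 9.87 in TTF-derived ieSCs, 8.68, 8.86, 8.30 and 8.24 in MEF-derived ieSCs, and 10.30 and 10.16 in MEFs. TTF-derived ieSCs overlapped with MEFs (-0.16 ± 0.23, adjusted p = 0.634), and MEF-derived ieSCs were lower by -1.71 ± 0.23 (adjusted p = 0.000216). Tap1 read 7.51, 7.41, 7.38 and 7.20 in TTF-derived ieSCs, 8.33, 8.32, 7.87 and 8.11 in MEF-derived ieSCs, and 9.40 and 9.45 in MEFs. Here the TTF-derived arrays were lowest, at -2.05 ± 0.19 against MEFs (adjusted p = 2.11e-05), and MEF-derived ieSCs stood at -1.27 ± 0.19 (adjusted p = 0.000437).

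Psmb9 and Tap1 lie head to head on chromosome 17, with no gene between them in the RefSeq gene order, and their starts share 1 stretch of DNA. That stretch of 225 bases is shown because the genes on its ends differed in TTF-derived ieSCs, Psmb9 by -0.16 and Tap1 by -2.05 from MEFs. Neither motif was matched in it, and it is read on the plus strand, the strand of Tap1.
Psmb9 to Tap1, chr17:34187331-34187555, plus strand: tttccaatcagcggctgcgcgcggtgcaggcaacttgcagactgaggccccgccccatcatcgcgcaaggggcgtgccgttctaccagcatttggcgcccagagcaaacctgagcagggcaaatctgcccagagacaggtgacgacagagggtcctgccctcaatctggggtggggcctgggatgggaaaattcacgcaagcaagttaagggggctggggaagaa

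Set against each other, TTF-derived and MEF-derived ieSCs differed in 14 of the 39 genes, 7 higher and 7 lower in TTF-derived ieSCs, where 36.0% of all genes were called, 16.8% higher and 19.3% lower. Higher in TTF-derived ieSCs were Stat2, Dhx58, Ifi204, Oasl1, Iigp1, Psmb8 and Psmb9, and lower were Zbp1, Ifit1, Eif2ak2, Usp18, Ifi35, Xaf1 and Tap1. The arrays of the 2 origins did not overlap in 16 genes, against 48.3% of all genes. The largest differences were Psmb8 at 2.90 ± 0.58 (adjusted p = 0.00405), Oasl1 at 2.75 ± 0.53, Xaf1 at -1.68 ± 0.23 and Psmb9 at 1.55 ± 0.19 (adjusted p = 0.000231). Ifi204 read 12.83, 12.82, 11.39 and 11.51 in TTF-derived ieSCs and 10.73, 10.89, 11.12 and 11.26 in MEF-derived ieSCs. Its groups did not overlap and the difference was 1.14 ± 0.35 (adjusted p = 0.0306), but it was lost under 8 alternative settings. The call of Stat2 between the origins, at 0.36 ± 0.11 (adjusted p = 0.0341), was lost under 13 settings, with an adjusted p of up to 0.191. The direction of these calls depended on the preparations. Without MEF-derived preparation 1 the count was 13 higher and 6 lower, where 30.3% of all genes were called. Without MEF-derived preparation 2 it was 5 higher and 12 lower, where 35.7% of all genes were called. With arrays of a preparation averaged, 4 genes passed, where 14.5% of all genes did, of which Dhx58, Psmb9 and Eif2ak2 had passed before and Cmpk2 had not.

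Preparations of 1 origin differed as well. In MEF-derived ieSCs preparation 2 was lower than preparation 1 in 28 of the 39 genes and higher in 2, where 11.7% of all genes were lower and 10.2% higher. The median log2 difference was -0.62 over the 39 genes and 0.00 over all genes, and 35 of the 39 lay below 0. In TTF-derived ieSCs preparation 2 was lower in 12 and higher in 11, where 13.6% and 12% of all genes were and 25.6% were called in either direction, with a median of 0.05. These tests rest on 2 arrays per preparation, and the p-values measure the spread between such arrays and not between cultures. Over both origins 11 genes were lower in preparation 2 in each, where 4.96% of all genes were, and 1 was higher in each, where 3.83% were. A further 8 were higher in TTF-derived but lower in MEF-derived preparation 2, where 1.15% of all genes were, and 1 was the reverse, where 1.38% were.

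Among MEF-derived ieSCs the losses in preparation 2 ran through nearly every role. They took in all 3 IFIT genes, all 4 OAS genes, all 6 genes of the ISG15 group, all 3 of antigen processing, 4 of 5 GTPases and 4 of 6 other effectors, but 2 of 5 transcription factors and 2 of 7 sensors. Ifi44 averaged 6.15 in preparation 2 and 9.86 in preparation 1, a difference of -3.72 ± 0.10 (adjusted p = 1.16e-06). Oas1a averaged 5.37 in preparation 2 and 8.36 in preparation 1 (-2.99 ± 0.08, adjusted p = 1.04e-06). Psmb8 averaged 5.36 in preparation 2 and 7.29 in preparation 1 (-1.93 ± 0.13, adjusted p = 7.44e-05). In each of these the 2 arrays of a preparation lay together and apart from the other pair. On its dimmer feature Oas1a differed by -0.79. The higher genes were Ifi204 and Trim25. Trim25 lost this call under 12 alternative settings (adjusted p up to 0.198), and its other feature differed by -0.15, so its direction is not settled here either. Tap1 lost its call as lower under 10 settings (adjusted p up to 0.198). Genes with the ISRE letters were lower in 10 of 14 and genes without them in 11 of 16. Without array 1a of MEF-derived ieSCs the count was 20 lower and 0 higher, and over all single arrays left out it ranged from 20 to 29 genes called.

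In TTF-derived ieSCs the 3 IFIT genes and 2 antigen processing genes were lower in preparation 2, while 2 of 4 OAS genes and 3 of 5 GTPases were higher. The call of Usp18 as lower was lost under 13 settings (adjusted p up to 0.218). Ifit3 averaged 10.02 in preparation 2 and 12.45 in preparation 1 (-2.43 ± 0.07, adjusted p = 1.09e-06), and Mx1 averaged 4.02 and 5.85 in preparations 2 and 1 (-1.83 ± 0.16, adjusted p = 0.000196), which runs into the dim end. Oasl1 averaged 10.39 in preparation 2 and 8.23 in preparation 1, a rise of 2.15 ± 0.07 (adjusted p = 1.97e-06). Ifit3 and Mx1 were lower in preparation 2 of both origins, Mx1 by -1.83 in TTF-derived and -1.71 in MEF-derived ieSCs, and Oasl1 went the other way in MEF-derived ieSCs.

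The preparation effect differed between the origins in 23 of the 39 genes, in 21 of them more positive in TTF-derived ieSCs, where 16.3% of all genes differed, 8.24% in that direction and 8.02% in the other. The 8 genes called in opposite directions with a rise in TTF-derived preparation 2 were Ddx58, Zbp1, Oasl1, Oasl2, Bst2, Parp14, Igtp and Irgm1, and Ifi204 did the reverse. Of these, Ddx58 lost its call under 13 alternative settings in TTF-derived (adjusted p up to 0.22) and 12 in MEF-derived ieSCs (up to 0.196). Bst2, for example, was 0.43 ± 0.07 higher in TTF-derived preparation 2 and 0.65 ± 0.07 lower in MEF-derived preparation 2, so that the effects differed by 1.08 ± 0.10 (adjusted p = 0.000466). The difference between effects was largest for Oas1a at 3.20 ± 0.11, Oasl1 at 2.79 ± 0.10 and Ifi44 at 2.69 ± 0.14. On the dimmer feature of Oas1a it was 0.88 and did not pass (limma adjusted p = 0.0555, each kept feature tested on its own). The numbers 1 and 2 are shared by the labels of both origins, and nothing in the labels ties equal numbers together.

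**Figure D4:**
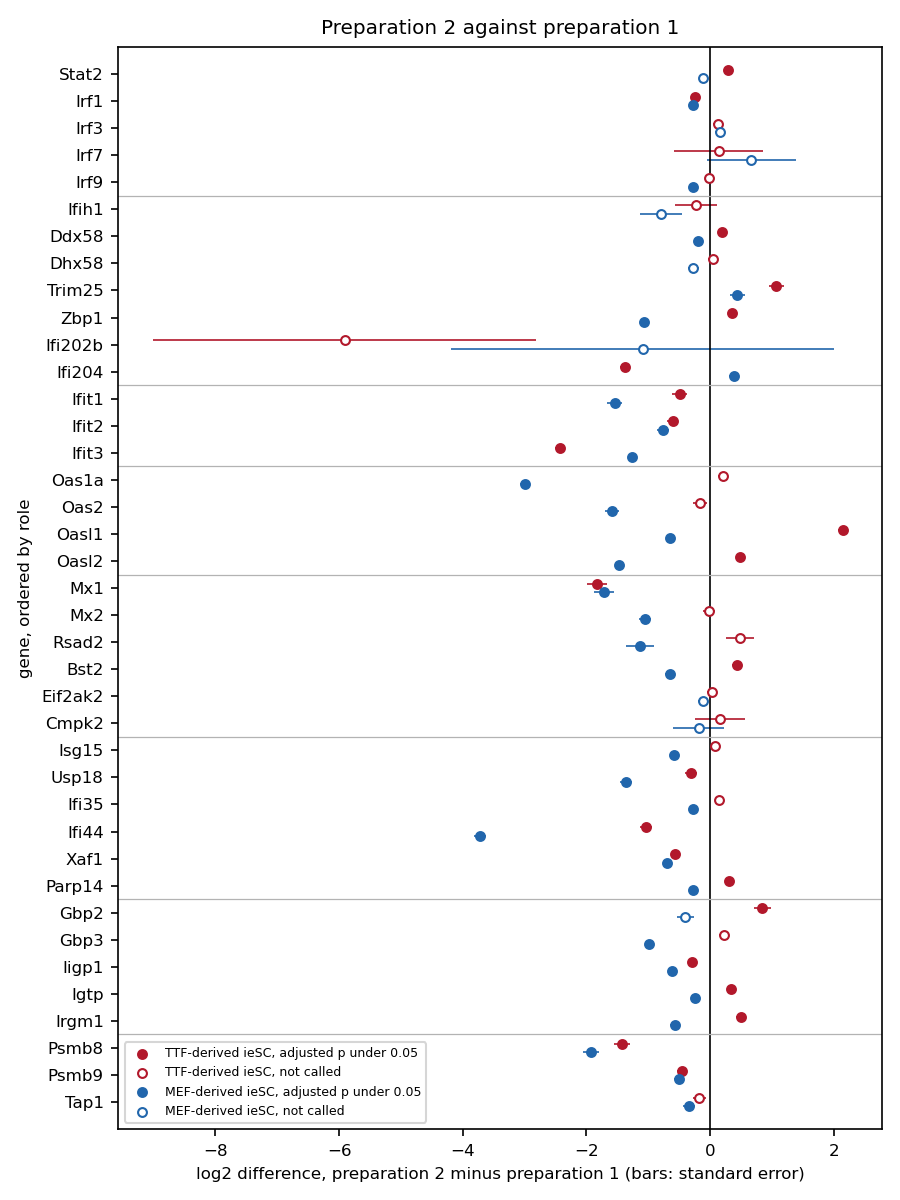
Log2 difference between preparation 2 and preparation 1 (horizontal) with its standard error for the 39 genes (vertical, grouped by role), TTF-derived ieSCs in red and MEF-derived ieSCs in blue, filled where the limma adjusted p is under 0.05. Blue points lie left of 0 for 35 genes, down to Ifi44 at -3.72, while red points fall on both sides, up to Oasl1 at 2.15.

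**Figure D5:**
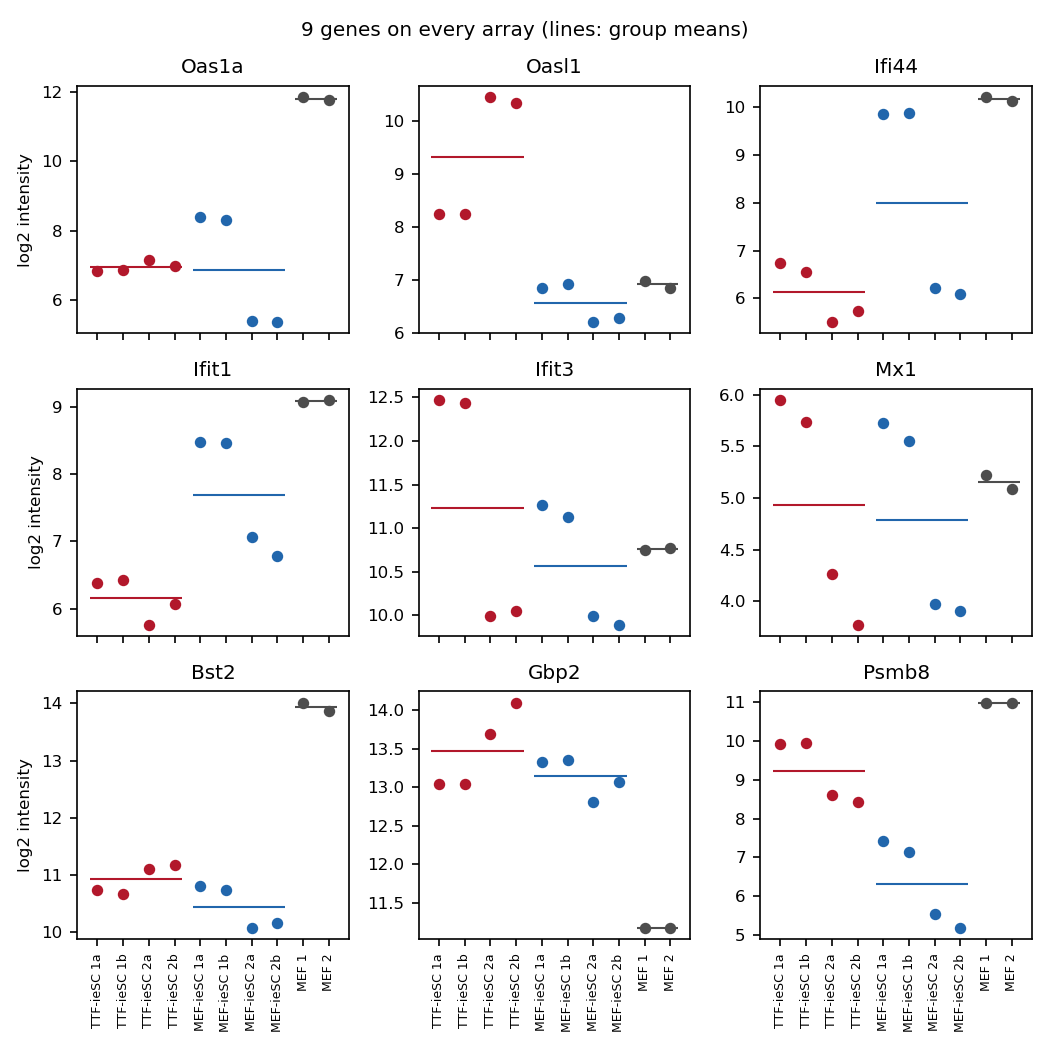
Log2 intensity (vertical) of 9 genes on each of the 10 arrays, TTF-derived ieSCs in red, MEF-derived ieSCs in blue and MEFs in grey, with lines at the group means. The 2 arrays of a preparation lie close together, and the step between MEF-derived preparations is plain in Oas1a, Ifi44, Ifit1 and Psmb8.

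The upstream genes of the pathway were counted over a list, and those named from it are mostly the ones with the smallest p against MEFs. Of 8 interferon ligand and receptor genes tested, 3 were higher and 1 lower than MEFs in TTF-derived ieSCs, and 1 was higher and 2 lower in MEF-derived ieSCs. Over all genes, 23.3% were higher and 21.9% lower in TTF-derived ieSCs, and 27.2% were higher and 24.0% lower in MEF-derived ieSCs. These shares apply to each of the lists below as well. The ligands Ifnb1, Ifna4 and Ifnk were dim on all 10 arrays. The ligand Ifna1 was not, and it was higher than MEFs by 0.46 ± 0.14 in TTF-derived ieSCs (limma adjusted p = 0.0268). In MEF-derived ieSCs Ifna1 was higher by 1.05 ± 0.14 (adjusted p = 0.000219). It read 6.89 to 7.03 in TTF-derived ieSCs, 7.38 to 7.72 in MEF-derived ieSCs, and 6.48 and 6.53 in MEFs. Ifnar2, a subunit of the type I receptor, rose by 1.33 ± 0.21 in TTF-derived ieSCs and differed by 0.50 ± 0.21 in MEF-derived ieSCs (adjusted p = 0.072), while its partner Ifnar1 differed by 0.04 ± 0.12 in TTF-derived and -0.10 ± 0.12 in MEF-derived ieSCs. Ifngr1, of the interferon gamma receptor, was lower by -0.41 ± 0.097 in TTF-derived and -0.48 ± 0.097 in MEF-derived ieSCs. Ifnlr1, the lambda receptor, was higher by 1.42 ± 0.23 in TTF-derived ieSCs and passed in TTF-derived against MEF-derived ieSCs as well, at 1.37 ± 0.19.

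Of 19 further sensing and JAK-STAT genes, 7 were higher and 5 lower than MEFs in TTF-derived ieSCs, and 6 were higher and 5 lower in MEF-derived ieSCs. Socs1, the feedback inhibitor of JAK kinases, averaged 8.55 in TTF-derived and 8.93 in MEF-derived ieSCs and 12.15 in MEFs, a difference of -3.60 ± 0.20 in TTF-derived and -3.22 ± 0.20 in MEF-derived ieSCs. Cgas, the sensor of cytosolic DNA, was lower by -4.64 ± 0.52 in TTF-derived and -3.77 ± 0.52 in MEF-derived ieSCs. Irf8, a factor of myeloid cells, averaged 3.81 in TTF-derived and 4.24 in MEF-derived ieSCs, at the dim end, and 10.19 in MEFs. The filter kept it through the MEF arrays alone. Jak2 rose by 1.32 ± 0.21 and 0.65 ± 0.21 in TTF-derived and MEF-derived ieSCs.

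A second list of 33 tested interferon-stimulated genes had nearly even counts against MEFs, 10 higher and 8 lower in TTF-derived ieSCs and 11 higher and 9 lower in MEF-derived ieSCs. Gbp4 and Tgtp1, counted as higher in both, were dim on both MEF arrays, so the filter kept them through the ieSC arrays alone. Of all genes, 23.3% were higher and 21.9% lower in TTF-derived ieSCs, and 27.2% were higher and 24.0% lower in MEF-derived ieSCs. Ifitm1, which hinders virus entry, was lower by -4.12 ± 0.24 in TTF-derived and -6.18 ± 0.24 in MEF-derived ieSCs, and Ifi27l2a by -3.55 ± 0.45 in TTF-derived and -5.23 ± 0.45 in MEF-derived ieSCs. Lgals3bp, a secreted glycoprotein, was lower by -3.31 ± 0.42 in TTF-derived and -4.13 ± 0.42 in MEF-derived ieSCs. Pml, the scaffold of nuclear bodies, was higher by 1.32 ± 0.12 and 0.99 ± 0.12 in TTF-derived and MEF-derived ieSCs. Between MEF-derived preparations the same list had 16 of 33 genes lower and 1 higher in preparation 2, with a median of -0.31. Of all genes, 11.7% were lower and 10.2% higher between these preparations. In TTF-derived preparation 2 the list had 2 lower and 7 higher, where 13.6% of all genes were lower and 12% higher. The ligands and receptors had 0 lower and 1 higher of 8 between MEF-derived preparations, and the macrophage markers 2 lower and 1 higher of 19. For these lists too, the shares over all genes were 11.7% lower and 10.2% higher. Of 11 class I genes, 2 were higher and 2 lower than MEFs in TTF-derived ieSCs and 2 higher and 3 lower in MEF-derived ieSCs, among them Tapbp, the tapasin gene, higher by 1.44 ± 0.19 in TTF-derived and 1.73 ± 0.19 in MEF-derived ieSCs. The class I heavy chain H2-D1 was lower by -1.12 ± 0.20 in TTF-derived and -0.59 ± 0.20 in MEF-derived ieSCs.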

How the data were processed

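Per the labels, total RNA was put on 10 Agilent arrays, 1 sample each, with Cy3 as the label. The deposited table holds log2 intensity for 62976 features. Limma is named, without a version, in the submitters' processing notes. Above the 40th percentile the deposited log2 columns, once sorted, lie within 0.0379 of each other, as after quantile normalization. The background correction was not given in the sources used here, and there are no detection flags. The number of arrays limits the precision.

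Genes were named from the platform annotation (31465 features with 1 symbol), with symbols updated through RefSeq. Features above their array's 40th percentile on at least 2 arrays were kept, and a gene is its kept feature with the highest mean, giving 16650 genes. Groups, taken from the source names, were compared in R 4.3.3 with limma 3.58.1 and statmod 1.5.0, fitting a mean per group to all 10 arrays with the preparation as a random block (duplicateCorrelation, 0.606). Preparations were compared with a mean for each of the 5 preparations and no block. Tests are two-sided with Benjamini-Hochberg adjustment over all 16650 genes and a threshold of 0.05, and the scripts were tested on simulated data. Differences are log2 with the fit's standard error.

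The 40 genes, their roles and the further lists were chosen with earlier results of these data known. Genes given array by array are, in each role and comparison, the called gene with the smallest p and the one with the largest difference, plus the 3 largest preparation differences in each origin; from each further list, up to 4 genes with the smallest p. The rest are given by ranges or differences, and a few genes were chosen after their values were seen (Trim25, Ifi202b, Irf7, Cmpk2 and Ifnar1). Alternatives were other filters, features, scales, variance models and blocks, and single arrays or preparations left out. Promoter windows are RefSeq's (GRCm38.p6).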

Additional observations from a re-analysis of the deposited data

Results flagged for a closer look

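Ifi202b read 15.25 on array 1b of TTF-derived ieSCs, far from the other 3 arrays of its group, which read 3.36 to 3.69. The threshold for such a gap is one that chance passes in about 1 group in 20.

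For 23 genes the difference between preparation 2 and preparation 1 was not the same in TTF-derived as in MEF-derived ieSCs by a test of that difference (limma, adjusted p under 0.05). The values that follow are log2, the preparation effect in TTF-derived minus that in MEF-derived ieSCs. In the OAS family it was 3.20 for Oas1a, 2.79 for Oasl1, 1.96 for Oasl2 and 1.42 for Oas2. On the dimmer feature of Oas1a it was 0.88 and did not pass (limma adjusted p = 0.0555). Among the other effectors it was 1.62 for Rsad2, 1.08 for Bst2 and 1.04 for Mx2, and in the IFIT family 1.05 for Ifit1 and -1.17 for Ifit3. In the ISG15 group it was 2.69 for Ifi44, 1.05 for Usp18, 0.66 for Isg15, 0.58 for Parp14 and 0.42 for Ifi35. The GTPases gave 1.25 for Gbp2, 1.20 for Gbp3, 1.07 for Irgm1, 0.58 for Igtp and 0.33 for Iigp1. Sensors and factors gave 1.41 for Zbp1, 0.38 for Ddx58, 0.40 for Stat2 and -1.76 for Ifi204. Each rests on 2 arrays per preparation. Iigp1 no longer passed under 13 alternative settings.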

How the results depend on the processing

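The 6 counts of called genes kept within 1.5 times of their value under all alternatives run but 1. With the 2 arrays of a preparation averaged, 13 genes passed in TTF-derived ieSCs against MEFs in place of 23, 15 in MEF-derived ieSCs against MEFs in place of 26, and 4 between the 2 kinds of ieSC in place of 14; that setting uses 5 values in place of 10. With single arrays left out, the counts ranged from 21 to 24 in TTF-derived against MEFs, 24 to 28 in MEF-derived against MEFs and 12 to 15 between the origins. Between preparations they ranged from 18 to 22 in TTF-derived and 20 to 29 in MEF-derived ieSCs, and from 19 to 25 for the difference of the effects. Averaging the features of a gene reversed Trim25, to -2.93 in TTF-derived and -3.27 in MEF-derived ieSCs against MEFs, since its features oppose each other. Only 2 pairs of preparations share a number between the origins. Over all genes tested, their deviations from the mean of their origin correlated at 0.297. This is 1 value for both pairs, because the deviations of preparations 1 and 2 mirror each other. With no label tying equal numbers together, the pairing was not settled. With the number as a replicate block, 20 genes passed between the origins (12 higher, 8 lower), where 50.1% of all genes did. The MEFs are 1 preparation, so the spread between MEF cultures is not measured, and levels near 5.0 have no measured line between present and absent.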

Other observations

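Genes of this set that are neighbours in the RefSeq gene order did not always move alike. Oasl1 and Oasl2 are adjacent on chromosome 5, and in TTF-derived ieSCs against MEFs they differed by 2.39 ± 0.65 and -1.49 ± 0.46. Between TTF-derived preparations both were higher in preparation 2, by 2.15 and 0.49, and between MEF-derived preparations both were lower, by -0.64 and -1.47. Ifit2 and Ifit3, adjacent on chromosome 19, were both lower in preparation 2 of both origins, by -0.60 and -2.43 in TTF-derived and by -0.76 and -1.26 in MEF-derived ieSCs. Gbp3 and Gbp2 on chromosome 3, with 1 gene between them, were both higher than MEFs in both kinds of ieSC. Psmb8, next to Tap1 on chromosome 17, was lower in preparation 2 of both origins, by -1.43 in TTF-derived and -1.93 in MEF-derived ieSCs, while Tap1 differed by -0.17 and -0.34.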
